A study of Mus musculus with 30 samples.

Results

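IgE germinal centre (GC) B cells were compared with IgG1 GC B cells that carried no GFP, on 6 of the 30 arrays of the series, 3 per cell type. All cells came from the mesenteric lymph nodes of CeGFP BALB/c mice on day 10 of infection with the worm Nippostrongylus brasiliensis. The IgE GC cells were sorted as IgE+ GFP+ B220+ CD95+ CD138-, and the comparison cells as IgG1+ GFP- B220+ CD95+ CD138-. Each array held RNA from a pool of 3 mice and an independent sort. CeGFP mice express GFP from an IRES cassette knocked in behind the coding part of membrane IgE, so all groups, the GFP-negative one included, carry the altered epsilon locus. GFP also marks IgG1 cells that rearranged the epsilon locus on the chromosome that makes no antibody. GFP status and antibody class therefore differ together here and cannot be told apart from these 6 arrays. The GFP-positive IgG1 GC cells of the same experiment (3 arrays) are given beside the results for that reason, and they share the IgE arrays in one comparison and the GFP-negative arrays in the other.

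A B cell in the germinal centre divides and mutates its antibody genes in the dark zone, then competes for antigen and T cell help in the light zone, where signals from the B cell receptor, CD40 and NF-kB are received. It can stay in the germinal centre, become a memory cell, or become a plasma cell, a step driven by Irf4, Prdm1 (Blimp-1) and Xbp1 that brings an enlarged endoplasmic reticulum (ER). IgE responses are known for short-lived germinal centre stages and for early plasma cells.

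Both cell types carried the GC B cell programme named in their labels. Bcl6, the repressor that maintains the GC state, was at 10.96, 10.91 and 10.94 on the IgE GC arrays and at 11.17, 10.88 and 11.04 on the GFP-negative IgG1 GC arrays, on the log2 signal scale used throughout. Pax5, the transcription factor of B cell identity, was at 11.21, 11.08 and 11.04 in IgE GC cells and at 10.96, 11.21 and 11.16 in GFP-negative IgG1 GC cells. Sdc1, which encodes the plasma cell marker CD138 that the gate left out, was at 4.52, 4.86 and 5.27 in IgE GC cells and at 4.65, 4.65 and 4.58 in GFP-negative IgG1 GC cells, against array medians of 5.28 to 5.34. Heavy chain genes of the epsilon and gamma-1 classes were not analysed here. Array correlations were 0.9725 to 0.9745 within IgE GC, 0.9763 to 0.9773 within GFP-negative IgG1 GC and 0.9702 to 0.9785 between them, so arrays of different classes were about as alike as arrays of the same class. In bulk RNA, fewer cells of a kind and less RNA per cell cannot be told apart.

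No gene passed the test. Of 12098 genes tested with limma, 0 (percent called 0) had an adjusted p under 0.05 after Benjamini-Hochberg adjustment, and the smallest adjusted p was 0.582. At an unadjusted p under 0.05 there were 205 genes (1.69%), 96 higher (0.794%) and 109 lower (0.901%) in IgE GC cells, where 604.9 would be reached by evenly spread p-values. The fit shares its spread with plasma and naive cells, and a fit to the 6 arrays alone gave 707 such genes and still 0 called. The median difference, IgE GC minus GFP-negative IgG1 GC, was 0.01, with an SD over genes of 0.22 and a median standard error (SE) of 0.23. For 10620 genes (87.8%) the 95% interval of the difference lay within 2-fold in either direction, and only 24 genes had an estimated difference of 2-fold or more, 7 higher (0.0579%) and 17 lower (0.141%) in IgE GC cells. The 3 arrays of one class lay wholly above or below those of the other for 1457 genes (12%), 811 with IgE GC above (6.7%) and 646 with IgE GC below (5.34%). Between IgE GC and GFP-positive IgG1 GC cells 0 genes were called and 264 (2.18%) had an unadjusted p under 0.05, and between the IgG1 GC cells with and without GFP the counts were 0 and 265 (2.19%). The genes below are therefore described by their values, and none is called different.

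The 15 genes with the smallest p among those lower in IgE GC cells included a kinase, a complement receptor, inhibitors of NF-kB and a corepressor. Lrrk2, a large kinase and GTPase known from Parkinson's disease, was at 7.31, 7.40 and 6.80 in IgE GC cells and at 8.55, 8.32 and 7.97 in GFP-negative IgG1 GC cells, a difference of -1.11 (SE 0.20, adjusted p 0.582). All 3 IgE GC arrays lay below all 3 GFP-negative IgG1 GC arrays, and the GFP-positive IgG1 GC mean of 7.73 fell in the gap. A second, dim probe set of Lrrk2 averaged 4.10 in IgE GC and 4.42 in GFP-negative IgG1 GC cells, and the mean of both probe sets gave a difference of -0.72. Cr2, the complement receptor CD21 that lowers the threshold of B cell activation and helps to hold antigen, was at 9.15, 8.85 and 9.28 in IgE GC cells and at 10.32, 9.86 and 10.24 in GFP-negative IgG1 GC cells. Its difference was -1.04 (95% interval -1.52 to -0.56), the groups did not overlap, and GFP-positive IgG1 GC cells averaged 9.74 ± 0.33 (SD, n = 3).

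Inhibitors of NF-kB were among these genes. Nfkbid, which encodes the nuclear inhibitor IkBNS, was at 6.35, 6.25 and 6.22 in IgE GC cells and at 7.32, 6.98 and 6.96 in GFP-negative IgG1 GC cells, a difference of -0.81 (SE 0.20). Nfkbie, which encodes the cytoplasmic inhibitor IkB-epsilon, was at 7.96, 7.66 and 7.15 in IgE GC cells and at 8.48, 8.45 and 8.30 in GFP-negative IgG1 GC cells, a difference of -0.82 (SE 0.23). Tnfaip3, the deubiquitinase A20 that ends NF-kB signalling, was named from the CD40 and NF-kB list and was at 6.87, 6.68 and 7.11 in IgE GC cells and at 7.60, 7.47 and 7.58 in GFP-negative IgG1 GC cells. All 3 are themselves induced by NF-kB, and for each the IgE GC arrays lay wholly below. Their GFP-positive IgG1 GC means of 6.83, 7.93 and 7.24 lay between the means of the IgE GC and the GFP-negative IgG1 GC cells.

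Tle3, a Groucho corepressor, was at 6.55, 7.09 and 6.52 in IgE GC cells and at 7.64, 7.61 and 7.46 in GFP-negative IgG1 GC cells. Marcks, a membrane substrate of protein kinase C, was at 5.84, 6.12 and 5.86 in IgE GC cells and at 6.50, 6.65 and 6.44 in GFP-negative IgG1 GC cells, with GFP-positive IgG1 GC cells at 6.48 ± 0.06 (SD, n = 3). Zfp788, a zinc finger gene, had the largest negative difference of all genes tested, -1.52 (SE 0.37), at 4.28, 4.59 and 4.59 in IgE GC cells and at 6.62, 5.29 and 6.12 in GFP-negative IgG1 GC cells. GFP-positive IgG1 GC cells averaged 4.70 for Zfp788, close to IgE GC cells, so for this gene the mean of the other GFP-carrying cells lay on the IgE side. The remaining genes of these 15 were Tox2, Grm6, Pcca, Lrrc32, Znhit6, Abcg3, Def8 and Syngr2, with differences of -0.59 to -0.90. In all 15 genes the groups did not overlap, against 5.34% of all genes tested with IgE GC wholly below. In all 15 the GFP-positive IgG1 GC mean lay between the other means. Choosing genes by smallest p in this comparison favours both counts, so they describe the choice and are no separate result.

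The 15 genes with the smallest p among those higher in IgE GC cells included parts of the secretory apparatus and a stem cell receptor. Lgr5, the R-spondin receptor known from intestinal stem cells, was at 6.47, 7.07 and 6.55 in IgE GC cells and at 5.70, 6.25 and 5.49 in GFP-negative IgG1 GC cells, a difference of 0.89 (95% interval 0.45 to 1.32). GFP-positive IgG1 GC cells were at 5.82 ± 0.15 (SD, n = 3), at the level of the GFP-negative ones. Ube2e3, a ubiquitin-conjugating enzyme, was at 7.72, 8.08 and 8.03 in IgE GC cells and at 7.17, 7.10 and 7.27 in GFP-negative IgG1 GC cells. Tram2, a protein of the ER translocon, was at 8.21, 8.24 and 8.16 in IgE GC cells and at 7.65, 7.64 and 7.62 in GFP-negative IgG1 GC cells, a difference of 0.57 with little spread within either class. For Lgr5, Ube2e3 and Tram2 every IgE GC array lay above every GFP-negative IgG1 GC array.

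Sec24d, which selects cargo in COPII vesicles, was at 5.54, 5.47 and 6.75 in IgE GC cells and at 4.54, 5.22 and 5.24 in GFP-negative IgG1 GC cells. Pdia4, a disulfide isomerase of the ER, was at 8.23, 8.31 and 9.36 in IgE GC cells and at 8.12, 7.57 and 7.80 in GFP-negative IgG1 GC cells. In both genes IgE GC replicate 3 was the highest array by a wide margin. The other genes were Gm15441, Syne4, Trpt1, Nxph4, Rpp25, Gm11487, Fuom, Cd4, Mpst and Adgre5, with differences of 0.54 to 1.06. For 13 of the 15 the groups did not overlap, against 6.7% of all genes tested with IgE GC wholly above, and the exceptions were Fuom and Cd4. In 11 of the 15 the GFP-positive IgG1 GC mean lay between the other means. The choice by smallest p favours these counts too.

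**Figure D1:**
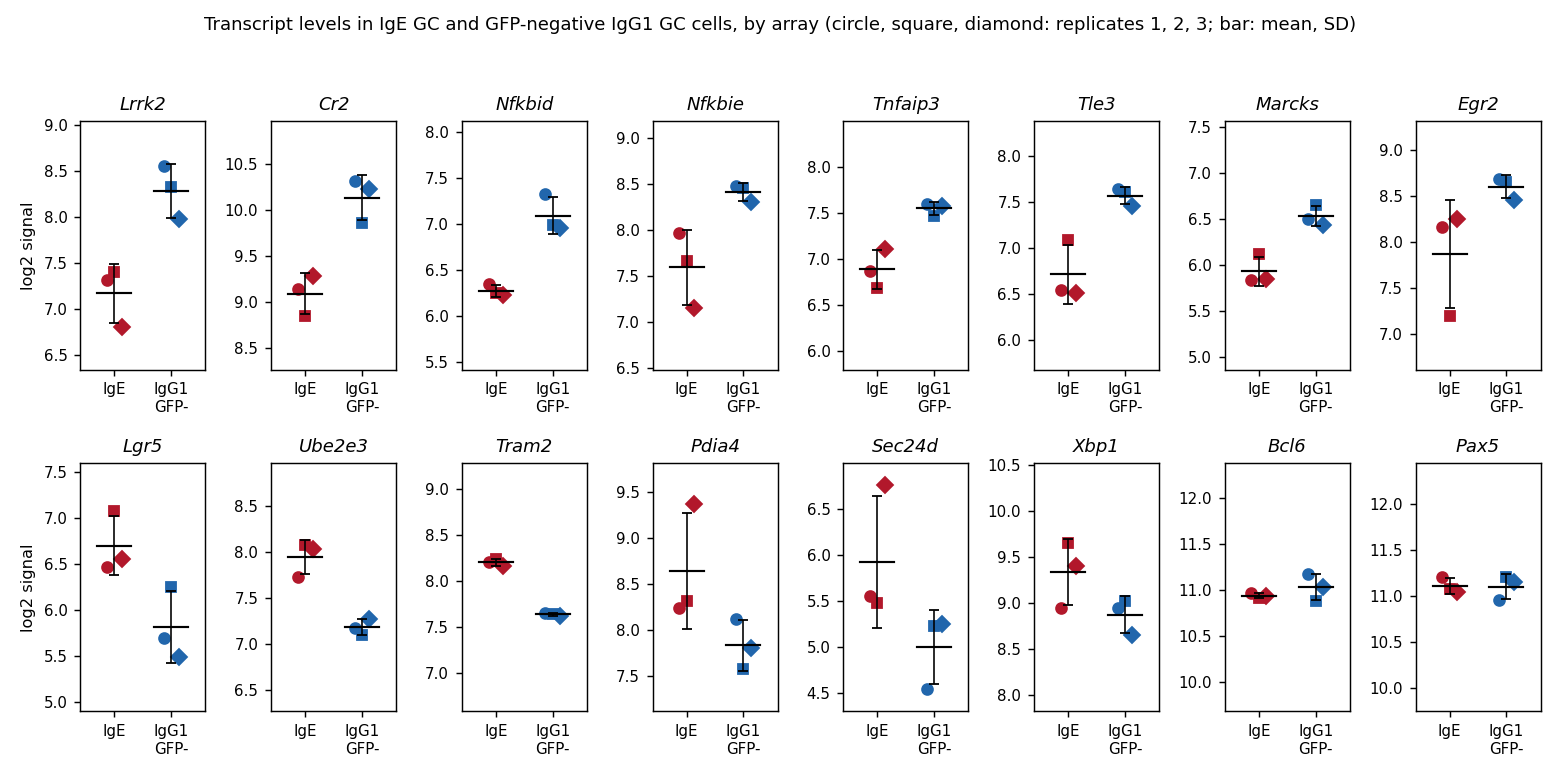
Log2 signal of 16 genes on the 3 IgE GC arrays (red, left) and the 3 GFP-negative IgG1 GC arrays (blue, right), with replicates 1, 2 and 3 as circle, square and diamond and the mean and SD as bars; every panel spans the same range of log2 units. Lrrk2 at 6.80 to 7.40 in IgE GC cells lies below 7.97 to 8.55 in GFP-negative IgG1 GC cells, while Bcl6 and Pax5 overlap.

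Genes of the light zone mostly had negative differences. A second experiment of the series, on 12 other arrays, sorted IgG1 GC cells into dark zone cells (CXCR4 high, CD86 low) and light zone cells (CXCR4 low, CD86 high), and its GFP-negative cells gave a gene set that used none of the 6 arrays compared here. Of 11050 genes tested there, 110 were called higher in the light zone (0.995%) and 176 in the dark zone (1.59%). Of the light zone genes 109 were tested here, and 96 of the 109 had a negative difference between IgE GC and GFP-negative IgG1 GC cells, against 5710 of all 12098 genes. Their median difference was -0.24, against 0.01 for all genes. Their mean level was 7.70, 7.61 and 7.62 on the IgE GC arrays and 8.06, 7.89 and 7.84 on the GFP-negative IgG1 GC arrays, and the classes did not overlap. GFP-positive IgG1 GC cells were at 7.94, 7.68 and 7.58, the first within the GFP-negative range, the second within the IgE GC range and the third just below both. That lowest array, replicate 3, had the smallest limma array weight of the 9 GC arrays (0.44, against 1.41 to 2.14).

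Within the light zone set, 19 of 109 genes (17.4%) had an unadjusted p under 0.05 with IgE GC lower, against 0.901% of all genes tested, and 0 had one with IgE GC higher, against 0.794%. For 26 genes the IgE GC arrays lay wholly below, against 5.34% of all genes, and for 0 genes wholly above, against 6.7%. The set included Lrrk2, Cr2, Tle3, Marcks and Grm6, which made up 5 of the 15 genes of smallest p. The 6 light zone genes next in p, chosen after their values were seen, were Lifr, the receptor of leukaemia inhibitory factor, the predicted gene Gm9861, Bcl2a1c, a survival factor of the BCL2 family, Serpinb1a, a protease inhibitor, Bhlhe40, a helix-loop-helix repressor, and Ryr2, a calcium channel. Serpinb1a was at 6.20, 6.12 and 6.75 in IgE GC cells and at 7.30, 7.01 and 7.03 in GFP-negative IgG1 GC cells, and its dark zone minus light zone difference in the second experiment was -2.33. Bcl2a1c was at 6.82, 7.15 and 6.67 in IgE GC cells and at 7.56, 7.62 and 7.48 in GFP-negative IgG1 GC cells, and its copies are close enough in sequence for probes to be shared. Of these 6 genes all but Bhlhe40 lay wholly below in IgE GC cells. Bhlhe40 was at 4.92, 5.89 and 5.36 in IgE GC cells and at 6.38, 6.52 and 5.78 in GFP-negative IgG1 GC cells, so its groups overlapped.

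The set's count depended little on single arrays. Leaving out each of the 6 arrays in turn gave medians of -0.28 to -0.19, and the count of negative differences was lowest, at 85 of 109, without GFP-negative IgG1 GC replicate 1. Against GFP-positive IgG1 GC cells the median difference of IgE GC cells was smaller, -0.09, with 69 of 109 genes negative, and GFP-positive minus GFP-negative IgG1 GC cells gave -0.16, with 89 of 109 negative. Of the light zone set, 34 genes were also called higher in naive than in GFP-positive IgG1 GC cells and 53 lower in IgG1 plasma cells, so these sets are not separate.

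The dark zone set showed the opposite sign with a smaller size. Of 176 dark zone genes, 125 had a positive difference between IgE GC and GFP-negative IgG1 GC cells (71.0%, against 52.8% of all genes), with a median of 0.07. Mean levels were 8.64, 8.90 and 8.87 on the IgE GC arrays and 8.62, 8.70 and 8.77 on the GFP-negative IgG1 GC arrays, and these ranges overlapped because IgE GC replicate 1 lay low. The median was 0.16 without IgE GC replicate 1 and 0.03 without IgE GC replicate 3. At an unadjusted p under 0.05 there were 9 dark zone genes (5.11%) with IgE GC higher, against 0.794% of all genes tested, and 0 lower, against 0.901%. Against GFP-positive IgG1 GC cells the set's median was 0.18. They included Lgr5, Cdc25b, the phosphatase that triggers entry into mitosis, and Cdkn3, a phosphatase of cyclin-dependent kinases, the last pair chosen after their values were seen. Cdc25b was at 8.54, 9.24 and 9.09 in IgE GC cells and at 8.26, 8.35 and 8.42 in GFP-negative IgG1 GC cells.

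**Figure D2:**
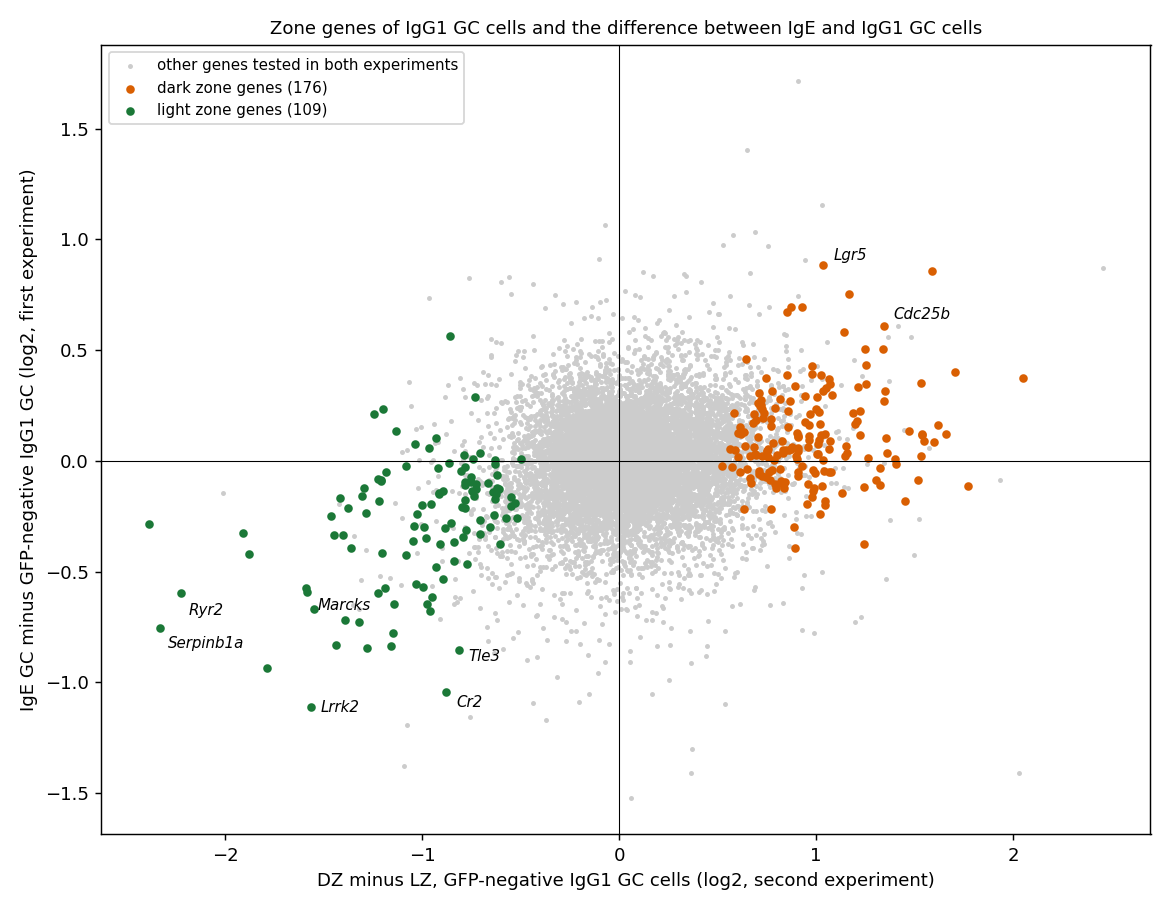
Each point is a gene tested in both experiments, with its dark zone minus light zone difference in GFP-negative IgG1 GC cells on the x axis and its IgE GC minus GFP-negative IgG1 GC difference on the y axis, both in log2 units. Light zone genes (green, 109) lie mostly below 0 on the y axis (96 of 109), and dark zone genes (orange, 176) more often above it (125 of 176).

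Of the 2 sort markers of the zones, Cxcr4 was near 0 and Cd86 lay lower on average in IgE GC cells, with overlap. Cxcr4, the chemokine receptor of dark zone cells, was at 10.80, 10.98 and 10.86 in IgE GC cells and at 10.75, 10.95 and 10.84 in GFP-negative IgG1 GC cells, a difference of 0.03 (95% interval -0.39 to 0.46). Cd86, the light zone costimulatory ligand, was at 9.62, 9.06 and 9.15 in IgE GC cells and at 9.98, 9.58 and 9.36 in GFP-negative IgG1 GC cells, a difference of -0.36 (95% interval -1.23 to 0.51), and GFP-positive IgG1 GC cells were at 9.28, 9.64 and 9.32. Cd83, which stabilises MHC class II at the surface, was at 11.16, 11.18 and 10.95 in IgE GC cells and at 11.54, 11.34 and 11.31 in GFP-negative IgG1 GC cells, with no overlap and a difference of -0.30 (SE 0.23). In a light zone list written from textbook knowledge, 17 of 19 genes were below 0 and the median was -0.24, or -0.15 without GFP-negative IgG1 GC replicate 1. Against GFP-positive IgG1 GC cells its median was -0.05, and GFP-positive minus GFP-negative IgG1 GC cells gave -0.19.

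Signals that B cells receive in the light zone were described through their target genes. Of 12 early response genes tested, which antigen induces rapidly through the receptor, 11 were below 0 and the median was -0.35, against 0.01 for all genes. Egr2, an early growth response factor, was at 8.16, 7.20 and 8.26 in IgE GC cells and at 8.69, 8.66 and 8.46 in GFP-negative IgG1 GC cells, with a difference of -0.73 and an interval of -1.56 to 0.11. IgE GC replicate 2 was the lowest array for Egr2, and the groups did not overlap. Egr1 was at 9.46, 8.22 and 9.17 in IgE GC cells and at 9.76, 9.28 and 9.26 in GFP-negative IgG1 GC cells. Myc, a transcription factor of cell growth induced by T cell help, was at 9.23, 9.03 and 9.03 in IgE GC cells and at 9.47, 9.14 and 9.63 in GFP-negative IgG1 GC cells. GFP-positive IgG1 GC cells were at 9.59 ± 0.11 (SD, n = 3). Array means of the list overlapped, at 7.27, 6.57 and 7.04 in IgE GC cells and 7.66, 6.99 and 7.21 in GFP-negative IgG1 GC cells, and the median was -0.06 without GFP-negative IgG1 GC replicate 1. MYC targets and ribosome biogenesis genes had 18 of 21 below 0, with a median of -0.17.

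Of 14 genes of the CD40 and NF-kB list, 10 were below 0 and the median was -0.23, or -0.12 without GFP-negative IgG1 GC replicate 1. List means were 7.66, 7.56 and 7.61 on the IgE GC arrays and 7.96, 7.67 and 7.84 on the GFP-negative IgG1 GC arrays, with no overlap. Besides Nfkbie and Tnfaip3, the members with the smallest p were Icam1, an adhesion molecule, and Nfkb2, the precursor of the p52 subunit. Nfkb2 was at 7.46, 7.22 and 7.39 in IgE GC cells and at 8.14, 7.59 and 7.59 in GFP-negative IgG1 GC cells, with no overlap, but GFP-positive IgG1 GC cells averaged 7.94, above the IgE GC arrays. Cd40 itself was at 9.03, 9.01 and 9.03 in IgE GC cells and at 9.78, 9.09 and 9.18 in GFP-negative IgG1 GC cells. Nfkbia, the main feedback inhibitor, differed by 0.00 (95% interval -0.87 to 0.88), so the inhibitors of the pathway did not all lie lower.

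Promoters of the list were searched for a kappaB motif, GGGA and TTCC with any 2 bases between them, on both strands of 300-base windows (250 before to 50 after the start site) from RefSeq, assembly GRCm38.p6. It was found in 2 of 12 genes of the list that had a promoter (16.7%), against 441 of 27025 genes (1.63%). Both genes are shown, with the motif's fixed letters in capitals, because one lay lower in IgE GC cells on every array and the other did not.
Nfkb2, chr19:46305454-46305473, minus strand: ttgtgGGGAcaTTCCtgccg
Nfkb2, chr19:46305700-46305719, plus strand: ttttcGGGActTTCCtaagc
Nfkbia, chr12:55492662-55492681, plus strand: gcgcgGGGAatTTCCaagcc
A match is a description of the letters and no evidence of binding. Nfkb2, with 2 matches, had a difference of -0.41, and Nfkbia, with 1 match, a difference of 0.00.

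Antigen presentation and receptor signalling genes had small differences, mostly below 0 against GFP-negative IgG1 GC cells and near 0 against GFP-positive ones. Of 13 MHC class II genes, 12 were below 0, the median was -0.12 (-0.04 without IgE GC replicate 3), and 12 of 13 had a 95% interval within 2-fold. Ciita, the master regulator of MHC class II, was at 9.71, 9.74 and 9.73 in IgE GC cells and at 10.04, 9.77 and 10.19 in GFP-negative IgG1 GC cells, with no overlap. The class II chain H2-Aa was at 11.53, 11.73 and 11.58 in IgE GC cells and at 11.60, 11.77 and 11.49 in GFP-negative IgG1 GC cells, a difference of -0.01. Of 26 B cell receptor signalling genes, 19 were below 0 with a median of -0.14 (-0.07 without IgE GC replicate 3), and 24 of 26 intervals lay within 2-fold. Differences in this list ran from -0.35 to 0.43, and the highest was that of Dok3, an adaptor that restrains receptor signalling, at 8.63, 8.65 and 8.95 in IgE GC cells and 8.53, 8.15 and 8.25 in GFP-negative IgG1 GC cells. Against GFP-positive IgG1 GC cells the median was -0.01 for MHC class II genes and 0.05 for receptor signalling genes, beside 0.03 for all genes, so these medians depended on which IgG1 cells were compared. Rasgrp3, an activator of Ras downstream of the receptor, was at 10.69, 10.67 and 10.43 in IgE GC cells and at 11.02, 10.99 and 10.80 in GFP-negative IgG1 GC cells, with GFP-positive IgG1 GC cells at 10.66. Plcg2, the phospholipase of the same pathway, was at 9.20, 9.03 and 9.23 in IgE GC cells and at 9.45, 9.27 and 9.46 in GFP-negative IgG1 GC cells, with GFP-positive IgG1 GC cells at 9.15. For both genes the GFP-positive IgG1 GC mean was close to that of IgE GC cells, which differed from it by -0.06 and 0.01. Among 16 inhibitory receptors and phosphatases 13 were below 0, with a median of -0.12 (-0.01 against GFP-positive IgG1 GC cells), and Cd5, a receptor that T cells carry too, was the exception of smallest p, at 5.32, 5.30 and 5.99 in IgE GC cells and 5.25, 5.15 and 5.04 in GFP-negative IgG1 GC cells.

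Genes of the plasma cell programme had positive differences that rested in part on a single array. Of 19 such genes 14 were above 0, with a median of 0.25. List means were 7.93, 8.02 and 8.44 on the IgE GC arrays and 7.995, 7.92 and 7.87 on the GFP-negative IgG1 GC arrays. Without IgE GC replicate 3 the median was 0.09. It was 0.45 against GFP-positive IgG1 GC cells, where the median of all genes was 0.03. Prdm1 was at 5.35, 4.74 and 6.49 in IgE GC cells and at 5.09, 5.77 and 4.96 in GFP-negative IgG1 GC cells, and its difference of 0.25 turned to -0.23 without IgE GC replicate 3. Irf4 was at 6.98, 6.98 and 7.80 in IgE GC cells and at 7.90, 7.43 and 6.85 in GFP-negative IgG1 GC cells, a difference of -0.14. The regulators of the switch to plasma cells therefore overlapped between the classes.

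Some other members lay higher on most or all IgE GC arrays, while 5 of the 19 genes had a difference below 0. Xbp1, the factor that builds the secretory apparatus, was at 8.95, 9.65 and 9.39 in IgE GC cells and at 8.95, 9.02 and 8.64 in GFP-negative IgG1 GC cells, with an overlap through IgE GC replicate 1. Txndc5, an ER thioredoxin, was at 9.74, 9.68 and 10.29 in IgE GC cells and at 9.58, 9.21 and 9.35 in GFP-negative IgG1 GC cells. Jchain, which links polymeric antibodies, was at 11.01, 11.22 and 11.56 in IgE GC cells and at 10.98, 10.78 and 10.85 in GFP-negative IgG1 GC cells. Txndc5, Jchain, Mzb1 and Slamf7 had groups that did not overlap, and their differences were 0.53, 0.39, 0.28 and 0.26. They were the only 4 of the 19 genes with IgE GC wholly above, against 6.7% of all genes tested.

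The secretory lists rested in part on the same array. Of 22 ER chaperone and disulfide genes 20 were above 0, with a median of 0.18, or 0.09 without IgE GC replicate 3. Of 32 genes of ER entry and vesicle transport 24 were above 0, with a median of 0.13, or 0.03 without it. The unfolded protein response list had 16 of 24 above 0 and a median of 0.03, or -0.04 without it. Set against GFP-positive IgG1 GC cells, the medians of these lists were 0.31, 0.20 and 0.17, in the same order. Hspa5, the chaperone BiP and standard readout of ER load, was at 10.46, 10.56 and 10.77 in IgE GC cells and at 10.53, 10.44 and 10.44 in GFP-negative IgG1 GC cells, a difference of 0.13 (95% interval -0.22 to 0.47). Creld2, an ER stress target, was at 7.57, 7.89 and 9.02 in IgE GC cells and at 7.73, 8.03 and 7.55 in GFP-negative IgG1 GC cells, with IgE GC replicate 3 alone above the others.

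The ER stress response element, CCAAT and CCACG with any 9 bases between them on either strand, was found in the promoter windows of 8 of 66 genes of these secretory lists (12.1%), against 37 of 27025 genes (0.137%). Examples with members at both ends of the range of differences are shown, with the element's fixed letters in capitals.
Hspa5, chr2:34772020-34772048, plus strand: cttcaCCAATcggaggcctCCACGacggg
Pdia6, chr12:17266486-17266514, plus strand: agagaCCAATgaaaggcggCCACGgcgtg
Creld2, chr15:88819515-88819543, minus strand: gtggaCCAATtgaggctcgCCACGagaag
Canx, chr11:50325795-50325823, minus strand: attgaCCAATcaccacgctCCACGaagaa
Differences for these were 0.13 for Hspa5, 0.29 for the disulfide isomerase Pdia6, 0.39 for Creld2 and -0.12 for the lectin chaperone Canx. Of the 8 genes with the element, 7 were above 0 (against 52.8% of all genes tested) and Canx was below. All 8 came from the unfolded protein response and ER chaperone lists, which were themselves mostly above 0, at 16 of 24 and 20 of 22 genes. The count is therefore not particular to genes with the element. For 1 of the 8, Pdia6, the IgE GC arrays lay wholly above, against 6.7% of all genes tested.

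**Figure D3:**
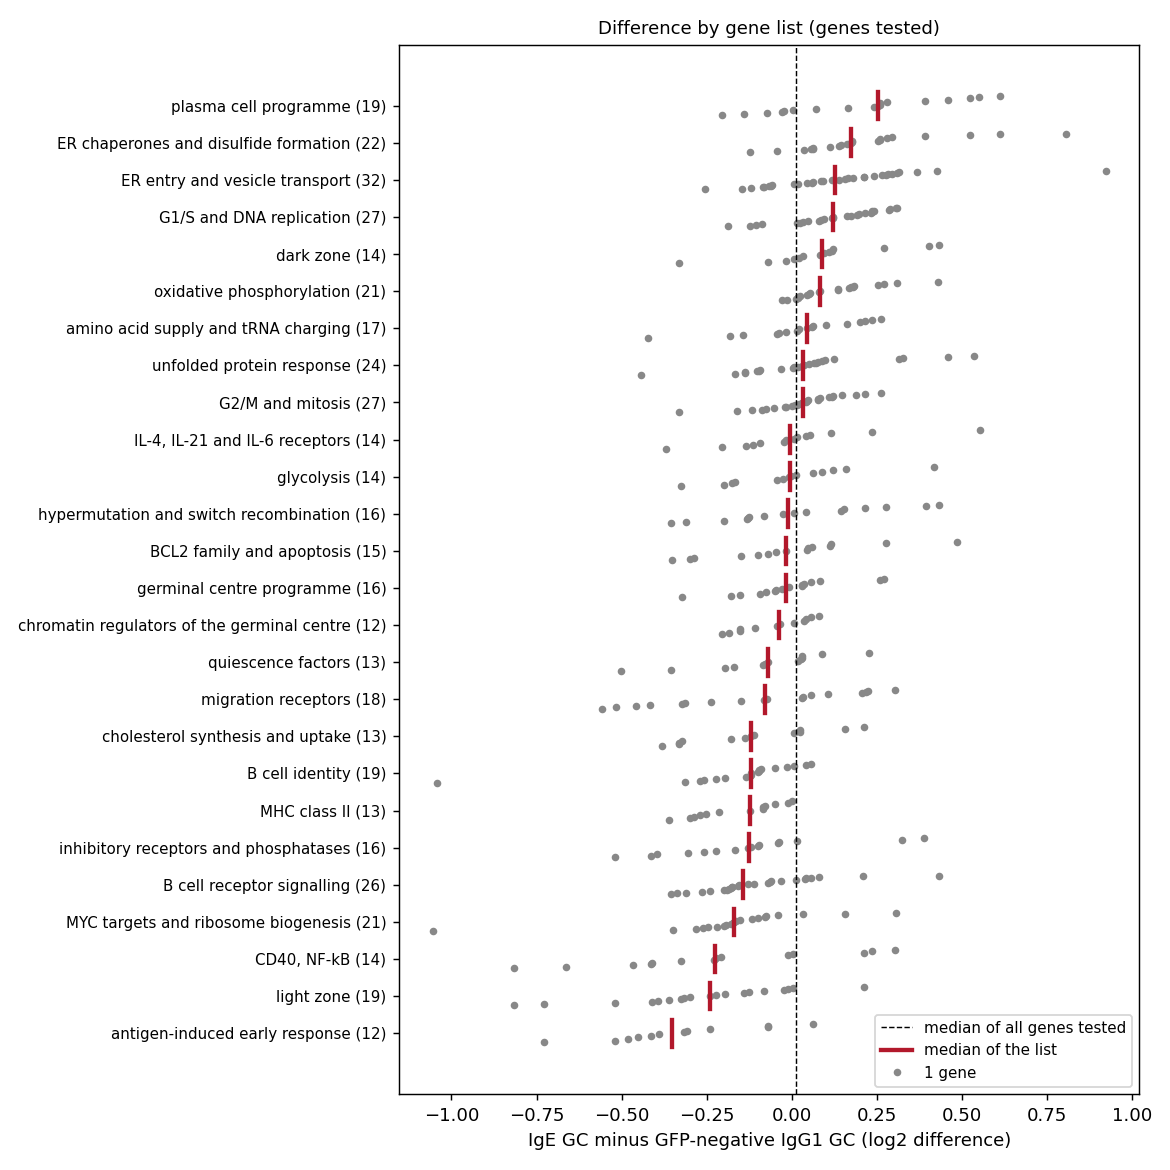
Each grey point is a gene, placed by its IgE GC minus GFP-negative IgG1 GC difference in log2 units, in lists with at least 10 genes tested (number in brackets); red bars are list medians and the dashed line the median of all genes (0.01). The plasma cell programme (0.25) is at the top and the antigen-induced early response (-0.35) at the bottom.

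Sets chosen on whole cell types had small medians too. Genes called higher in IgG1 plasma cells than in GFP-positive IgG1 GC cells, by at least 2-fold, numbered 734 (6.07%). In the comparison of IgE GC with GFP-negative IgG1 GC cells 456 of them were above 0, with a median of 0.06. That median was 0.02 without IgE GC replicate 3 and 0.19 against GFP-positive IgG1 GC cells. Genes called lower in plasma cells numbered 1051 (8.69%), and 703 of them were below 0, with a median of -0.09 (0.02 against GFP-positive IgG1 GC cells). Mean levels of these 1051 genes were 8.23, 8.28 and 8.20 on the IgE GC arrays and 8.38, 8.32 and 8.30 on the GFP-negative IgG1 GC arrays, with no overlap. They averaged 6.51 and 6.46 on the 2 IgG1 plasma cell arrays. Those 2 arrays helped to choose the set, so a large distance between GC and plasma cells was fixed by the choice and gives no independent scale. Of 349 genes called higher in naive cells (2.88%), 224 were below 0, with a median of -0.09 (-0.05 without GFP-negative IgG1 GC replicate 1). Against GFP-positive IgG1 GC cells the median of this naive set was 0.09, and against both IgG1 groups together 0.0025, so its direction turned with the comparison cells. The GFP-positive arrays helped to choose the plasma cell and naive sets, so medians against them are not independent of the choice. Of the 109 genes lower in IgE GC cells at an unadjusted p under 0.05, 22 (20.2%) belonged to this naive set, against 2.88% of all genes tested.

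**Figure D4:**
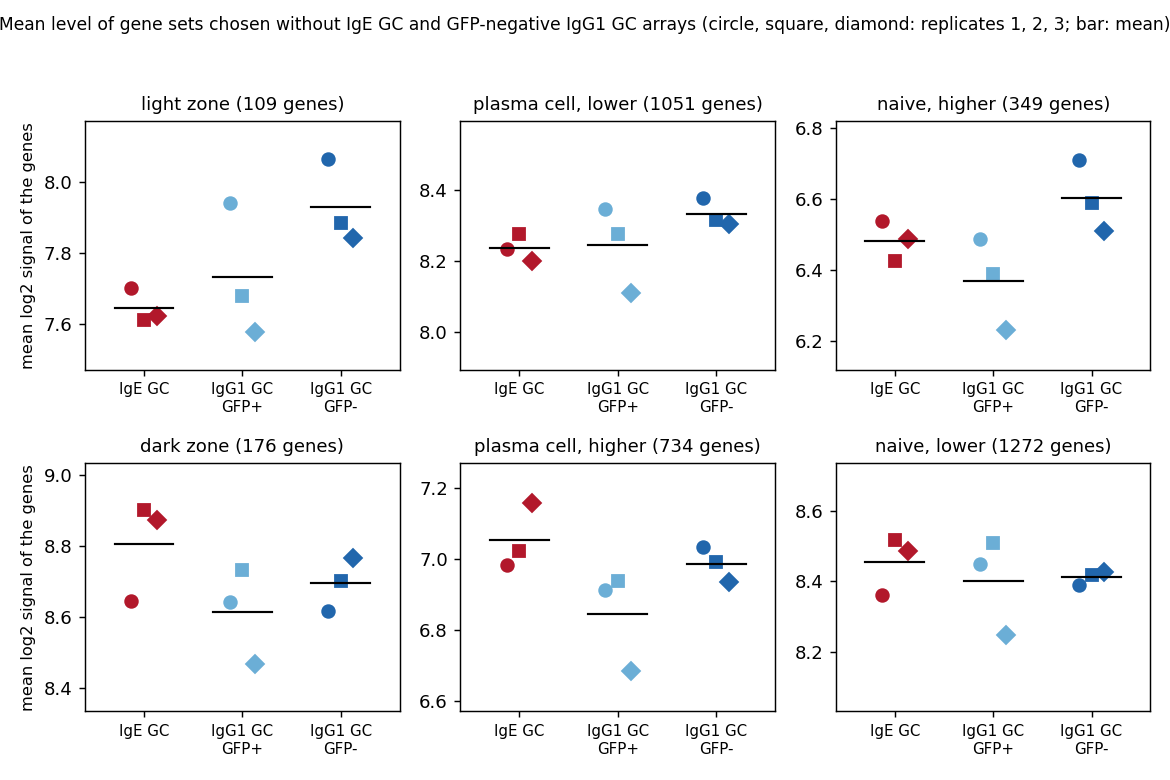
Mean log2 signal of 6 gene sets on each array of IgE GC, GFP-positive IgG1 GC and GFP-negative IgG1 GC cells, with replicates 1, 2 and 3 as circle, square and diamond and bars at group means; the GFP-positive arrays helped to choose the plasma cell and naive sets, and the panels span equal ranges. The light zone set is at 7.61 to 7.70 in IgE GC cells and at 7.84 to 8.06 in GFP-negative IgG1 GC cells.

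B cell identity and the GC programme were close between the classes. Of 16 GC programme genes 7 were above 0 and 15 had a 95% interval within 2-fold, with a median of -0.02. S1pr2, the receptor that confines cells to the germinal centre, was at 8.60, 8.61 and 8.62 in IgE GC cells and at 8.58, 8.53 and 8.55 in GFP-negative IgG1 GC cells, a difference of 0.06 (95% interval -0.40 to 0.51). Bach2, which holds back the plasma cell fate, was at 9.40, 9.34 and 9.53 in IgE GC cells and at 9.45, 9.31 and 9.42 in GFP-negative IgG1 GC cells. Intervals of -0.90 to 0.72 for Bcl6 and -0.75 to 0.76 for Pax5 leave room for differences short of 2-fold. Of 19 B cell identity genes 16 were below 0 with a median of -0.12 (-0.05 without IgE GC replicate 3, and 0.05 against GFP-positive IgG1 GC cells), Cr2 the furthest. The signalling chains of the receptor, Cd79a and Cd79b, had differences of -0.03 and 0.06 and intervals within 0.43 of 0.

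CD23, the low-affinity IgE receptor encoded by Fcer2a, was at 11.30, 11.24 and 10.94 in IgE GC cells and at 11.46, 11.40 and 11.04 in GFP-negative IgG1 GC cells. Its difference was -0.13 (95% interval -0.85 to 0.58), and the groups overlapped. Adam10, the protease that sheds CD23, was at 8.16, 8.24 and 8.11 in IgE GC cells and at 8.13, 8.34 and 8.20 in GFP-negative IgG1 GC cells. Of the survival genes, Bcl2 was at 6.57, 6.13 and 6.54 in IgE GC cells and at 6.04, 6.90 and 6.35 in GFP-negative IgG1 GC cells. Bcl2l11, which encodes the death inducer Bim, was at 8.32, 8.79 and 8.10 in IgE GC cells and at 8.39, 8.96 and 8.30 in GFP-negative IgG1 GC cells. The BCL2 family list had 7 of 15 genes above 0 and a median of -0.02.

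Cell cycle lists had mostly positive values of small size. G1/S and DNA replication genes were above 0 in 23 of 27 cases, with a median of 0.12. That median was 0.07 without IgE GC replicate 3 and 0.20 against GFP-positive IgG1 GC cells. G2/M genes were above 0 in 18 of 27, with a median of 0.03 whose sign depended on single arrays. It was -0.07 without IgE GC replicate 3, 0.18 without IgE GC replicate 1 and 0.13 against GFP-positive IgG1 GC cells. Mki67, the antigen that labels dividing cells, was at 10.98, 10.99 and 10.96 in IgE GC cells and at 10.71, 10.74 and 10.91 in GFP-negative IgG1 GC cells, with no overlap and a difference of 0.19 (95% interval -0.07 to 0.45). Cdkn1b, the inhibitor p27 that holds cells out of cycle, was at 5.93, 6.30 and 6.31 in IgE GC cells and at 6.79, 6.81 and 6.45 in GFP-negative IgG1 GC cells, with GFP-positive IgG1 GC cells at 6.08, and its second probe set differed by -0.02. Oxidative phosphorylation genes were above 0 in 19 of 21 cases, with a median of 0.08 (0.05 without GFP-negative IgG1 GC replicate 1) and list means of 9.67, 9.75 and 9.77 in IgE GC cells and 9.55, 9.63 and 9.62 in GFP-negative IgG1 GC cells. Medians of glycolysis, cytokine receptor and hypermutation lists were -0.01, 0.00 and -0.01.

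The difference between the classes in plasma cells was given beside that in GC cells, from other arrays. Between IgE plasma cells (4 arrays) and GFP-positive IgG1 plasma cells (2 arrays), 116 genes (0.959%) passed an adjusted p under 0.05 with limma, 95 of them higher and 21 lower in IgE plasma cells. In GC cells the 95 genes had a median difference of -0.03 and the 21 genes one of -0.13. Among the 205 genes with an unadjusted p under 0.05 in GC cells, 98 (47.8%) had the same sign in plasma cells, against 44.8% of all genes tested.

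Markers of other cell types moved with single arrays. All 8 tested genes of the T cell list were above 0, with a median of 0.15 (0.06 without IgE GC replicate 1, 0.41 without replicate 2), and the level summed over 12 T cell genes ranged from 57.4 to 64.4 on the IgE GC arrays and from 58 to 60.1 on the GFP-negative IgG1 GC arrays. Mean T cell marker levels were 5.81, 5.21 and 5.73 in IgE GC cells and 5.40, 5.28 and 5.39 in GFP-negative IgG1 GC cells, so IgE GC replicates 1 and 3 lay high and replicate 2 did not. Cd4 was at 5.34, 4.91 and 5.62 in IgE GC cells and at 4.45, 4.87 and 4.91 in GFP-negative IgG1 GC cells, near the array medians. Over IgE GC replicates 1, 2 and 3 the light zone mean was 7.70, 7.61 and 7.62, and Lrrk2 was at 7.31, 7.40 and 6.80. The part of T cell RNA in these and the other results was not tested, and a single array low in T cell markers cannot decide it. Of 12 basophil and mast cell markers 2 were tested, and their sums over all 12 were 48.1 to 48.5 in IgE GC cells and 47.6 to 48.6 in GFP-negative IgG1 GC cells. Macrophage and dendritic cell sums were 58.0 to 60.1 in IgE GC cells and 57.8 to 59.4 in GFP-negative IgG1 GC cells, and neutrophil and eosinophil sums were 48.1 to 51.1 in IgE GC cells and 48.0 to 48.4 in GFP-negative IgG1 GC cells.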

How the data were processed

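The values are the series' deposited log2 signals from Affymetrix Mouse Gene 1.0 ST arrays, which, per the submitters' processing notes, came from robust multi-array averaging (RMA) run in R 2.15.2. Per the labels' protocols, 2 ng of RNA was amplified and 5 ug of cDNA labelled. RMA gives all arrays a common distribution, which hides changes in total RNA per cell and compresses differences of dim genes; no batch or date is given in the sources used here. Probe sets with 1 gene symbol were kept (21640 of 34760), 1 per gene by the highest mean over 30 arrays, and genes above the array median on at least 2 of 18 arrays were tested (12098). The 18 arrays of the first experiment, in 6 groups, were fitted together with limma 3.58.1 (lmFit, eBayes) in R 4.3.3, adjusted by Benjamini-Hochberg over all genes tested, with a gene called at an adjusted p under 0.05. The zone set came from the 12 arrays of the second experiment (11050 genes tested). The number of arrays limits the precision. With 3 arrays against 3, an exact two-sided permutation test cannot go below p = 0.1, so none was used.

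The 36 gene lists (565 genes, 516 in the table, 466 tested) were written from textbook knowledge. The comparison, the lists and the genes always named were chosen with earlier results of these data known, so counts over them are descriptions. Genes were named by rule: the 15 of smallest p in each direction, the 4 of smallest p in each list, and a set of regulators. Others are marked as chosen after their values were seen, as are the list members Hspa5, Creld2, Canx, Pdia6, H2-Aa, Nfkbia and Slamf7. Alternatives covered the arrays fitted, a replicate block, normalization, filters, probe sets, the variance model, array weights, both IgG1 groups together and leaving out arrays. The fit was tested on simulated data. Promoter windows came from RefSeq, GRCm38.p6. Plots used matplotlib 3.10.9 and python 3.11.15.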

Additional observations from a re-analysis of the deposited data

Results flagged for a closer look

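For 5 of the named genes the class difference in GC cells (IgE minus GFP-negative IgG1) departed from that in plasma cells (IgE minus GFP-positive IgG1) in a limma interaction test, which called 23 of 12098 genes (0.19%), 17 with the lower and 6 with the higher difference in GC cells. When each of the 12 arrays was left out in turn the count was 7 to 14 without a GC array (7 without GFP-negative IgG1 GC replicate 1 or IgE GC replicate 3), 15 to 20 without an IgE plasma cell array, and 65 and 54 without IgG1 plasma cell replicates 1 and 2. The plasma cell comparison is between GFP-positive groups and the GC comparison is not, so GFP status and cell stage cannot be told apart. Gcsam, a signalling adaptor of GC B cells, had an interaction of -2.21 (SE 0.31, adjusted p 0.0086), and Ifitm3, an interferon-induced membrane protein, one of 3.16 (SE 0.40, adjusted p 0.00581). Both kept an adjusted p under 0.05 without any single array. For all 5 genes the plasma cell difference, which rests on 2 IgG1 arrays, was larger in size than the GC one. Gcsam, Ifitm3, Nfkbie, Fcer2a and Tnfrsf17 differed by 0.27, -0.30, -0.82, -0.13 and 0.26 in GC cells. In plasma cells they differed by 2.48, -3.46, 1.29, 2.55 and 2.82. The interaction for Nfkbie was -2.11 (adjusted p 0.0161) and was lost without GFP-negative IgG1 GC replicate 1 or 2 or IgE GC replicate 3, with a highest adjusted p of 0.0564. Fcer2a had -2.68 (adjusted p 0.0329), lost in 9 of the 12 settings (highest adjusted p 0.12), and Tnfrsf17, the plasma cell survival receptor BCMA, had -2.56 (adjusted p 0.0262), lost in 8 (highest adjusted p 0.0952).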

How the results depend on the processing

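The number of genes called was 0 under each alternative except array weights, where it was 1 (Lrrk2, difference -1.14, adjusted p 0.0475 with limma), and it was 0 to 0 over the fits that left out each array in turn. Counts at an unadjusted p under 0.05 ran from 153 to 875 against 205: 707 with the 6 arrays alone, 506 with the 9 GC arrays, 819 with array weights, 352 of 19937 genes with no filter, and 310 without naive replicate 1 and GFP-positive IgG1 GC replicate 3. Replicate numbers do not pair the samples by the labels, and deviations of same-numbered arrays correlated at 0.0952, 0.140 and 0.135, each array best with its own number, a hint from the data only. With the replicate block 0 genes were called, with 625 (9 arrays) and 875 (6 arrays) at an unadjusted p under 0.05. Centring each array on its median gave 80 higher and 124 lower, and setting IgE GC against both IgG1 groups gave 130 higher and 80 lower, in place of 96 and 109. Against both IgG1 groups the median of the naive set was 0.0025 and that of the plasma cell lower set -0.0364, so these sets depend on the comparison cells, and the cause was not tested. Leaving out each array, signature medians ran from -0.28 to -0.19 (light zone), 0.03 to 0.16 (dark zone), 0.02 to 0.10 (plasma cell higher), -0.10 to -0.06 (plasma cell lower), -0.13 to -0.05 (naive higher) and 0.01 to 0.08 (naive lower). Of the named genes 25 had a sign that turned in at least 1 setting, none of them called in any. The median 95% interval of the fit to 18 arrays reached 0.49 on either side, so that fit could not resolve smaller differences for most genes.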

Other observations

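The genes furthest apart on a single array were not those of smallest p. Gclm, a subunit of the enzyme that makes glutathione, had the highest difference of all genes tested, 1.72, at 6.18, 6.79 and 10.61 in IgE GC cells and at 6.03, 6.07 and 6.34 in GFP-negative IgG1 GC cells, with IgE GC replicate 3 alone high. Flicr, a long noncoding RNA, was at 8.16, 3.77 and 4.30 in IgE GC cells and at 3.93, 3.60 and 3.78 in GFP-negative IgG1 GC cells, with IgE GC replicate 1 alone high. Mean T cell marker levels were 5.81 on that array and 5.73 on IgE GC replicate 3, where Flicr was not high. A link to T cell RNA was not tested. Both genes were chosen after their values were seen.

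The heavy chain gene Ighg3, a microRNA gene and I730030J21Rik lay lower in IgE GC cells, chosen after their values were seen. Ighg3 was at 5.50, 6.88 and 6.99 in IgE GC cells and at 8.12, 7.96 and 7.53 in GFP-negative IgG1 GC cells, with no overlap. The probe sets of Igha and Ighm all overlapped between the groups. The constant region genes of the IgG subclasses are near-identical in places, so probes of Ighg3 may take up RNA of another subclass, and no direction is drawn from it. Mir142, the symbol of a microRNA precursor of blood cells, was at 4.98, 4.83 and 5.13 in IgE GC cells and at 6.89, 5.70 and 5.87 in GFP-negative IgG1 GC cells, with no overlap and an unadjusted p of 0.0786. I730030J21Rik was at 7.01, 6.93 and 6.62 in IgE GC cells and at 8.17, 8.29 and 8.23 in GFP-negative IgG1 GC cells, with no overlap, and its adjusted p was 0.0928 in the limma fit of the 6 arrays alone, the lowest of that fit.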
